A study of Mus musculus with 8 samples.

Results

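The genes described here are 9 genes of the plasma cell program: Irf4, Prdm1, Xbp1, Jchain, Mzb1, Derl3, Edem1, Sdc1 and Tnfrsf17. They were chosen by symbol for their known role in antibody-secreting cells and not by a rule on their values, although earlier results of these data were known. Each matched 1 of the 52550 genes in the deposited tables. They were followed in pre-pro-B and pro-B cells, early stages of B cell development, that were sorted by flow cytometry from mouse bone marrow. There were 7 libraries: 2 of WT pre-pro-B, 2 of Lf-/- pre-pro-B, 1 of WT pro-B and 2 of Lf-/- pro-B cells. A second sample of WT pro-B cells was not analysed here. All mice were of the C57BL/6J strain. The Lf-/- mice lacked lactoferrin, an iron-binding protein of milk and of neutrophil granules, in the whole animal, and age-matched WT littermates served as controls. No mouse was treated, and the ages are not given in the sources used here. The study gated pro-B cells as B220+CD43+IgM-, and its gate for pre-pro-B cells required AA4.1 and B220. The replicates carry numbers only, so p-values measure the spread between these libraries, which may be technical.

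Plasma cells are the end stage of the B lineage and secrete antibody. IRF4 and BLIMP1, the product of Prdm1, drive B cells into this state and shut down the B cell identity factors, and XBP1 enlarges the endoplasmic reticulum (ER), where antibody chains are folded, assembled and, if misfolded, removed. Early B cells do not yet secrete antibody, and mature plasma cells reside in the same bone marrow from which early B cells are sorted.

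Values are FPKM, which are relative to transcript length, so levels can be compared between genes. In Lf-/- libraries Ltf, the gene of lactoferrin, was at 88.2 to 168 FPKM, compared with 2143 to 2731 FPKM in WT libraries. Markers of other cells were present in every library: 14 neutrophil granule genes together took 24.1% to 51.9% of a library's summed FPKM. For comparison, 14 genes of the B lineage itself took 0.0277% to 0.430%. Lf-/- pre-pro-B replicate 2 stood apart: 12172 of its genes were above 0, against 19477 to 20250 elsewhere, and 64 genes that had at least 5 FPKM in all other libraries were listed at 0 there. The steps between low values corresponded to 11200000 to 15700000 fragments in the other 6 libraries, and no step could be read in this one, so its depth is unknown. In such bulk samples, fewer cells of a type and less RNA per cell cannot be told apart.

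The 9 genes spanned levels from below 1 FPKM to above 1000 FPKM, and together took 0.0385% to 0.237% of a library's summed FPKM. Jchain was the most abundant in 6 of the 7 libraries, and in Lf-/- pro-B replicate 1 Mzb1 was above it. Xbp1, Mzb1 and Edem1 were at 12.2 FPKM or more in every library. Irf4, Sdc1, Tnfrsf17 and Derl3 stayed under 10 FPKM throughout, and Prdm1 did not reach 1 FPKM in any library. The remaining 8 genes passed the filter of at least 1 FPKM in at least 2 libraries and were tested.

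**Figure D1:**
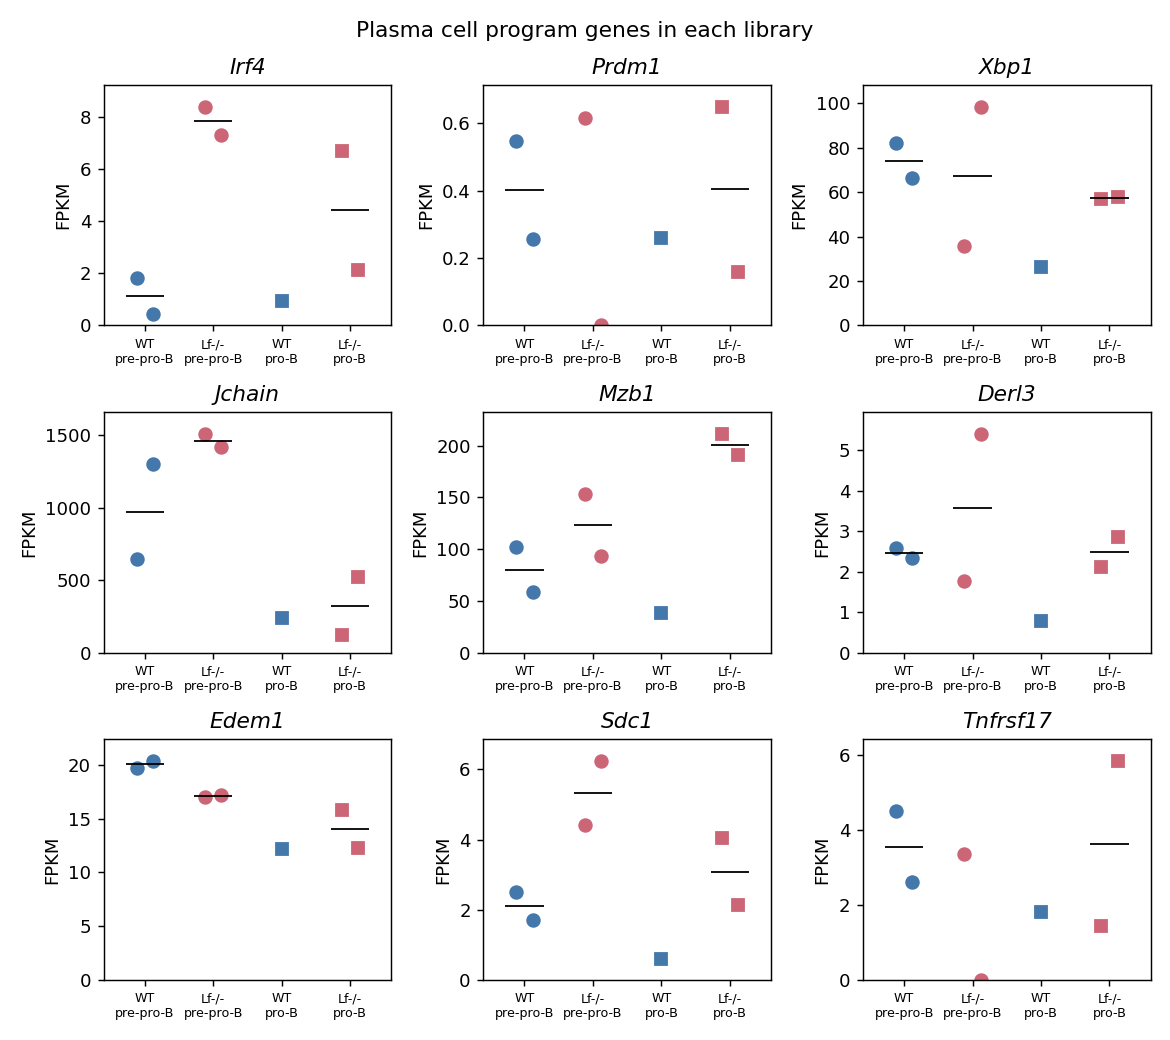
FPKM of each of the 9 genes (vertical axes, linear and starting at 0) in the 4 groups; each point is 1 library, blue WT and red Lf-/-, circles pre-pro-B and squares pro-B, and a line marks the mean of 2 libraries where neither is listed at 0. Irf4 lay above every WT library in all 4 Lf-/- libraries, Jchain lay lower in all 3 pro-B libraries than in any pre-pro-B library, and Prdm1 did not exceed 0.649 FPKM.

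Genotypes were compared over both stages with limma on log2(FPKM + 1), a scale that understates the change of low genes, with stage as a term. After adjustment, 0 of the 8 genes passed a p of 0.05, compared with 0.185% of all 10793 genes tested. At an unadjusted p under 0.05, 3 of the 8 genes passed, Irf4, Mzb1 and Sdc1, all higher in Lf-/- libraries, where 6.48% of all genes tested were higher and 0.695% lower at that threshold. Genes were not evenly split: 66.8% of all genes had higher values in Lf-/- libraries, with a median difference of 0.21 on the log2 scale, and 6 of the 8 program genes did, with a median difference of 0.50. With the libraries scaled to their typical gene (median-ratio scaling), these medians were -0.046 and 0.22.

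Irf4 (chromosome 13 of GRCm38, 30749226 to 30766976) encodes the transcription factor that acts first among the drivers of the plasma cell state and also serves in earlier B cells and in dendritic cells. Its level was 1.83 and 0.422 FPKM in WT pre-pro-B, 8.38 and 7.29 FPKM in Lf-/- pre-pro-B, 0.926 FPKM in WT pro-B and 6.69 and 2.12 FPKM in Lf-/- pro-B cells. Each Lf-/- library was thus above each WT library, the only gene of the 9 for which the genotypes did not overlap in this direction, as was the case for 9.87% of all genes tested, with 1.13% separate and lower. The difference over both stages was 1.82 ± 0.43 (log2, SE), with an unadjusted p of 0.00238 and an adjusted p of 0.243 in limma's test. In order of the group means, Lf-/- pre-pro-B came first at 7.83 ± 0.771 FPKM (SD, n = 2) and Lf-/- pro-B next at 4.40 ± 3.23 FPKM (SD, n = 2). The gap between these means was close to the SD of the second. WT pre-pro-B was at 1.13 ± 0.995 FPKM (SD, n = 2), and the WT pro-B library lay between its 2 values. The lowest value, in WT pre-pro-B replicate 2, rested on about 24.7 fragments and the highest on about 447 fragments. Fragment numbers here and below assume the longest annotated transcript of each gene, so shorter transcripts would give fewer. Those of Irf4 run from 360 to 4764 bases.

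Prdm1 (chromosome 10, 44437177 to 44528501) encodes BLIMP1, the repressor that switches off the B cell genes. Its values were 0.547 and 0.256 FPKM in WT pre-pro-B cells. Of the Lf-/- pre-pro-B pair, replicate 1 had 0.616 FPKM and replicate 2 was listed at 0. Among pro-B cells, WT had 0.259 FPKM and the Lf-/- pair 0.649 and 0.160 FPKM. The values above 0 correspond to about 13.2 to 38.7 fragments per library, and the groups overlapped throughout. It fell below the filter and was not tested.

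Xbp1 (chromosome 11, 5520659 to 5525893) encodes the factor that raises ER folding, transport and degradation genes once its RNA has been spliced by IRE1, a step that a value per gene does not resolve. It was at 82.1 and 66.1 FPKM in WT pre-pro-B, 35.8 and 98.4 FPKM in Lf-/- pre-pro-B, 26.1 FPKM in WT pro-B and 56.7 and 57.9 FPKM in Lf-/- pro-B cells. The 2 Lf-/- pre-pro-B libraries lay on either side of both WT pre-pro-B libraries, and the WT pro-B library was the lowest of all 7. The genotype difference over both stages was 0.26 ± 0.44 (log2, SE; unadjusted p = 0.568 in limma's test), and its sign turned with median-ratio scaling (-0.070) and without the WT pro-B library (-0.30). The fit without that library takes the genotype difference from the pre-pro-B libraries alone. The stage difference, pro-B minus pre-pro-B, was -0.62 ± 0.44 (log2, SE; unadjusted p = 0.194).

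Derl3 and Edem1 serve the removal of misfolded proteins from the ER: DERL3 is a membrane component of the export channel, and EDEM1 recognises misfolded glycoproteins. Derl3 (chromosome 10, 75893413 to 75895941) was at 2.58 and 2.35 FPKM in WT pre-pro-B, 1.76 and 5.40 FPKM in Lf-/- pre-pro-B, 0.777 FPKM in WT pro-B and 2.11 and 2.85 FPKM in Lf-/- pro-B cells. As for Xbp1, the WT pro-B library was lowest and the 2 Lf-/- pre-pro-B libraries lay on either side of the WT pre-pro-B libraries. The root-mean-square distance between the centred log2 values of Derl3 and Xbp1 over the 7 libraries was 0.257, the shortest between any 2 of the 9 genes. The differences were 0.55 ± 0.38 by genotype (log2, SE; unadjusted p = 0.180) and -0.55 ± 0.38 by stage (unadjusted p = 0.179), and the lowest level, in WT pro-B, rested on about 14.8 fragments.

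The upstream sequences of this pair are shown because XBP1 is known to bind ER stress response elements. The search covered windows of 300 bases around RefSeq gene starts on GRCm38.p6 (250 before and 50 after), which held 8 of the 9 genes, all but Mzb1. Both strands were searched for the ER stress response element (CCAAT and CCACG with 9 free bases between them) and ACGTGG (XBP1 core), which can overlap. The 250 bases before the start of Derl3 (chr10:75893148-75893397, plus strand) held both, on the opposite strand and with no shared base, 138 to 156 bases and 164 to 169 bases before the start, set in capitals below. Of all 32851 windows, 0.119% held the former and 8.31% the latter, and no other of the 8 windows held either, including the 250 bases before the start of Xbp1 (chr11:5520391-5520640, plus strand), which carry no capitals.
Derl3: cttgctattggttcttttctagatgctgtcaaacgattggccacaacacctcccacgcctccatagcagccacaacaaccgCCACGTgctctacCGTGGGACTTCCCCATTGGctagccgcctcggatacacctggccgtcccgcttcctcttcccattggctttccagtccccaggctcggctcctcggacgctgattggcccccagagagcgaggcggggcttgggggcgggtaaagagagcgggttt
Xbp1: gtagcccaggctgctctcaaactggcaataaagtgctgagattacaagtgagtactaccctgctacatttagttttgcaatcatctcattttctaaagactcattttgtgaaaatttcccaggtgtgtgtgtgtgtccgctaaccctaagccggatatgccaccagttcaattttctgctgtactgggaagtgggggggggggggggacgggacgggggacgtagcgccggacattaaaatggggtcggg

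Edem1 (chromosome 6, 108828641 to 108859356) varied least in proportion. It was at 19.7 and 20.3 FPKM in WT pre-pro-B, 17.0 and 17.2 FPKM in Lf-/- pre-pro-B, 12.2 FPKM in WT pro-B and 15.8 and 12.2 FPKM in Lf-/- pro-B cells. All 3 pro-B libraries were thus below all 4 pre-pro-B libraries, which held for 0.945% of all genes tested, although with median-ratio scaling the stages overlapped. The stage difference was -0.44 ± 0.28 (log2, SE; unadjusted p = 0.155 in limma's test) and the genotype difference -0.06 ± 0.28 (log2, SE).

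Jchain (chromosome 5, 88519809 to 88527891) encodes the joining chain that links secreted IgM and IgA into polymers. It was at 643 and 1302 FPKM in WT pre-pro-B, 1509 and 1418 FPKM in Lf-/- pre-pro-B, 240 FPKM in WT pro-B and 125 and 523 FPKM in Lf-/- pro-B cells. All pro-B values were below all pre-pro-B values, as was the case for 0.945% of all genes tested. This held with median-ratio scaling too, where the share of all genes was 1.25%. The stage difference over both genotypes was -2.28 ± 0.50 (log2, SE), with an unadjusted p of 0.00145 and an adjusted p of 0.794 in limma's test. Of the 8 genes, 2 were lower in pro-B libraries at an unadjusted p under 0.05, Jchain and Sdc1, compared with 1.16% of all genes tested, and at the adjusted threshold 0 of the 8 and 0.00927% of all genes passed. The genotype difference was 0.44 ± 0.50 (unadjusted p = 0.401), within its error. In order of the means, Lf-/- pre-pro-B stood at 1464 ± 64.3 FPKM and WT pre-pro-B at 972 ± 465 FPKM (SD, n = 2 each), a gap close to the SD of the WT pair. Lf-/- pro-B, at 324 ± 281 FPKM (SD, n = 2), spanned the WT pro-B library.

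Immunoglobulin constant genes, which encode the antibody chains that JCHAIN joins, had the lower pro-B values in common with Jchain. Igha (IgA heavy chain) was at 2977 and 4332 FPKM in WT pre-pro-B, 4608 and 3127 FPKM in Lf-/- pre-pro-B, 567 FPKM in WT pro-B and 728 and 1100 FPKM in Lf-/- pro-B cells. Its stage difference was -2.31 ± 0.32 (log2, SE; unadjusted p = 5.93e-05, adjusted p = 0.213), and its genotype difference was 0.31 ± 0.32. The ratio of Jchain to Igha stayed between 0.171 and 0.475 in all 7 libraries. Of the 11 immunoglobulin constant genes tested, 8 had lower values in pro-B cells, 5 of them at an unadjusted p under 0.05. At that threshold 1 was higher, Ighg3, which was listed at 0 in Lf-/- pre-pro-B replicate 2. Over all genes tested, 47.4% had higher values in pro-B cells, and 1.16% were lower and 1.25% higher at that threshold. The median of the 11 was -1.02, compared with -0.027 over all genes tested. The 12 genes of the list took 4.52% to 9.50% of summed FPKM in pre-pro-B and 1.77% to 3.22% in pro-B libraries. Ighe was listed at 0 in 6 libraries. Of 12 monocyte and macrophage genes, none of which was listed at 0, 9 had lower values in pro-B cells, with a median of -0.33. The complement genes C1qa, C1qb and C1qc, which bone marrow macrophages express, were lower at an unadjusted p under 0.05 and did not overlap between stages, with differences of -1.42, -1.64 and -1.54 on the log2 scale. Of all genes tested, 0.945% were separate and lower by stage. C1qb, for example, was at 46.5 to 80.0 FPKM in pre-pro-B and 11.0 to 25.0 FPKM in pro-B cells. The sum of the 12 genes, of which Ly6c2 made up 76.3% to 89.2%, did overlap, at 0.0944% to 0.268% and 0.0940% to 0.136%, and without Ly6c2 it overlapped at 0.0187% to 0.0371% and 0.0147% to 0.0218%. Of 13 B lineage genes tested, 10 had lower and 3 higher values in pro-B cells, with a median of -0.42. At an unadjusted p under 0.05, 4 of the 10 were lower, and all 13 overlapped between stages. The part of other cells, or of B lineage content, in the Jchain result was not tested.

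The genes nearest to Jchain in pattern among the 10793 tested, by root-mean-square distance of centred log2 values over 7 libraries, were antibody genes: Ighv1-62-3 at 0.363, Igkv1-117 at 0.465 and Igha at 0.517. V segments resemble each other in sequence, so their values depend on how the authors' counting divided shared reads. The upstream sequence of Jchain (chr5:88527898-88528147, minus strand, 250 bases before the RefSeq start) is shown as that of the gene with the widest stage difference. Its window was also searched for the IRF repeat (GAAA again after 2 free bases, in 3.44% of all windows), CAGCTG (an E-box, 16.3%), ATGCAAAT (the octamer, 1.74%) and GAAAGT (a PRDM1 core, 14.3%), on both strands and with overlaps allowed, and held none of them, so it carries no capitals. The octamer and the E-box were in none of the 8 windows, the IRF repeat was in that of Tnfrsf17, and the PRDM1 core was in those of Tnfrsf17 and Irf4.
Jchain: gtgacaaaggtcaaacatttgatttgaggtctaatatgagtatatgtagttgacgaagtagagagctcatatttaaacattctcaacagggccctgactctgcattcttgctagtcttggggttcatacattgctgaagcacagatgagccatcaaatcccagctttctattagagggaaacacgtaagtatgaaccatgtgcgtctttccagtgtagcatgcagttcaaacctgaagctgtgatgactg

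**Figure D2:**
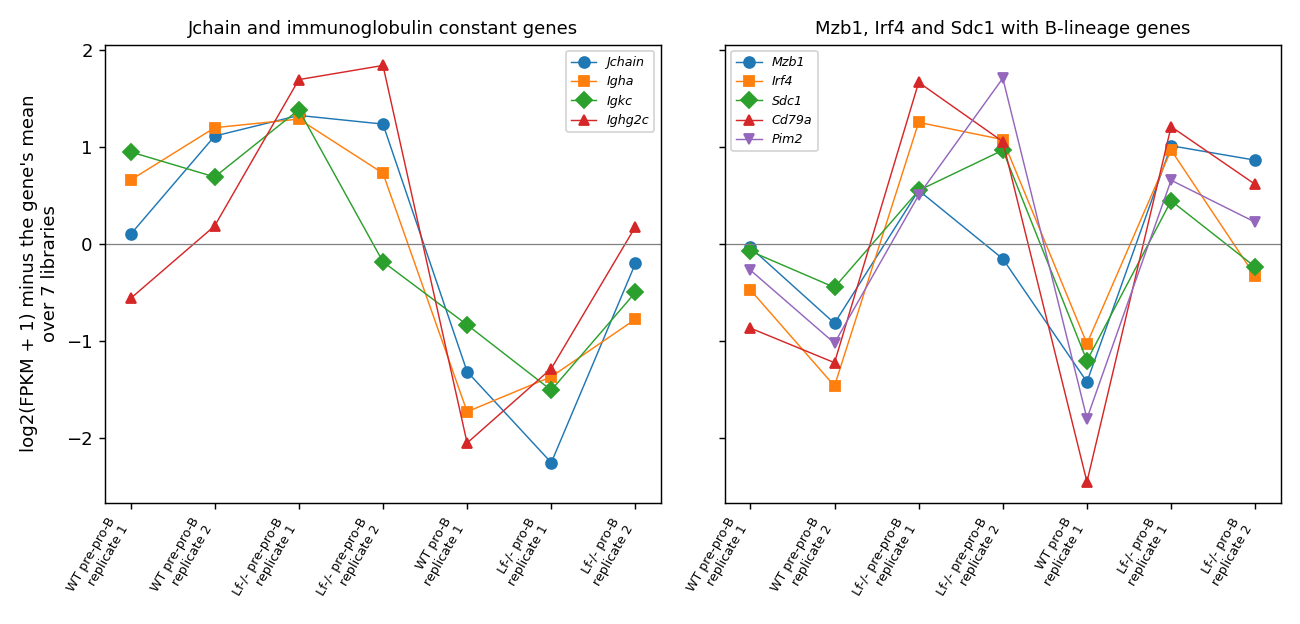
Centred log2(FPKM + 1), that is each value minus the gene's mean over 7 libraries (vertical axis), for each library (horizontal axis); lines only join the points of a gene. On the left, Jchain, Igha and Igkc lay below their means in all 3 pro-B libraries and Ighg2c in 2 of them. On the right, Cd79a and Pim2 lay below their means in the 3 WT libraries only. Mzb1, Irf4 and Sdc1 lay below theirs in these 3 too. They also did in Lf-/- pre-pro-B replicate 2 (Mzb1) or Lf-/- pro-B replicate 2 (Irf4 and Sdc1).

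Mzb1 (chromosome 18, 35647267 to 35649367) encodes an ER chaperone that aids antibody assembly and is also active in marginal zone B cells and plasmacytoid dendritic cells. It was at 102 and 58.6 FPKM in WT pre-pro-B, 153 and 93.5 FPKM in Lf-/- pre-pro-B, 38.2 FPKM in WT pro-B and 211 and 190 FPKM in Lf-/- pro-B cells. The genotypes overlapped only through Lf-/- pre-pro-B replicate 2, which lay below WT pre-pro-B replicate 1. Without that library 2 of the 9 genes, Irf4 and Mzb1, were separate and higher in Lf-/- cells, compared with 16.4% of all genes (1.95% were then separate and lower by stage, as Jchain and Edem1 were). The genotype difference over both stages was 1.32 ± 0.43 (log2, SE; unadjusted p = 0.0134, adjusted p = 0.498 in limma's test), and without WT pro-B replicate 1 it was 0.63 (unadjusted p = 0.193). The latter estimate comes from the pre-pro-B libraries alone, since no WT pro-B library is then left, and so repeats their difference. Unlike Jchain, Mzb1 did not move in 1 direction by stage, and its stage difference over both genotypes was 0.04 ± 0.43. The WT pro-B library lay below both WT pre-pro-B libraries, whereas both Lf-/- pro-B libraries lay above both Lf-/- pre-pro-B libraries. The ratio of Mzb1 to Jchain was 0.0450 to 0.158 in pre-pro-B and 0.159 to 1.69 in pro-B libraries. SPATA24, a gene on the same strand, covers nearly all of Mzb1 in the annotation used here, so reads of the 2 may not have been told apart. That entry is not among the genes with deposited values, so whether the authors' counting included it is not known.

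The genotype difference of Mzb1 was also set against stage. It was 0.63 ± 0.50 within pre-pro-B cells (unadjusted p = 0.257 in limma's test). It was 2.36 in pro-B cells, where a fit of all 4 groups, which takes the lone WT library to vary like the others, gave an unadjusted p of 0.00298 and an adjusted p of 0.789 in limma's test. The difference between stages, an interaction, was 1.74 ± 0.69 (log2, SE), with an unadjusted p of 0.0393 and an adjusted p of 0.990. No other of the 8 genes had an unadjusted interaction p under 0.05, which 2.74% of all genes had, and 0% passed after adjustment. The unadjusted p was 0.162 with median-ratio scaling.

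The genes nearest to Mzb1 in pattern were Fcrl1, a receptor-like gene of B cells, at 0.182, the antisense gene A530040E14Rik at 0.273 and Ppp1r15a, a regulator of translation under ER stress, at 0.312. Whether the counting used strand is not given in the sources used here. The nearest to Xbp1 were Glrx (0.119), Glb1 (0.172) and Ctsb (0.176), genes of redox balance and of lysosomes.

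Sdc1 encodes CD138, the surface proteoglycan by which plasma cells are sorted, and Tnfrsf17 encodes BCMA, their survival receptor. Sdc1 (chromosome 12, 8771323 to 8793715) was at 2.51 and 1.71 FPKM in WT pre-pro-B, 4.42 and 6.24 FPKM in Lf-/- pre-pro-B, 0.605 FPKM in WT pro-B and 4.04 and 2.14 FPKM in Lf-/- pro-B cells. Within each stage both Lf-/- libraries were above the WT libraries, and across stages Lf-/- pro-B replicate 2 lay below WT pre-pro-B replicate 1. The genotype difference was 1.14 ± 0.33 (log2, SE; unadjusted p = 0.00726, adjusted p = 0.390 in limma's test). Without WT pro-B replicate 1, which leaves only the pre-pro-B libraries to estimate this difference, its unadjusted p was 0.0515 in the same test. The stage difference was -0.77 ± 0.33 (unadjusted p = 0.0436, adjusted p = 0.947), and the lowest level rested on about 27.5 fragments.

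Tnfrsf17 (chromosome 16, 11313812 to 11320074) had 4.50 and 2.61 FPKM in WT pre-pro-B cells. Of the Lf-/- pre-pro-B pair, replicate 1 had 3.35 FPKM and replicate 2 was listed at 0. Among pro-B cells, WT had 1.80 FPKM and the Lf-/- pair 1.42 and 5.83 FPKM. The groups overlapped in both comparisons, and the values above 0 rested on about 13.1 to 74.7 fragments. The genotype difference was -0.44 ± 0.63 (log2, SE) with the value listed at 0 and 0.25 without that library.

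**Figure D3:**
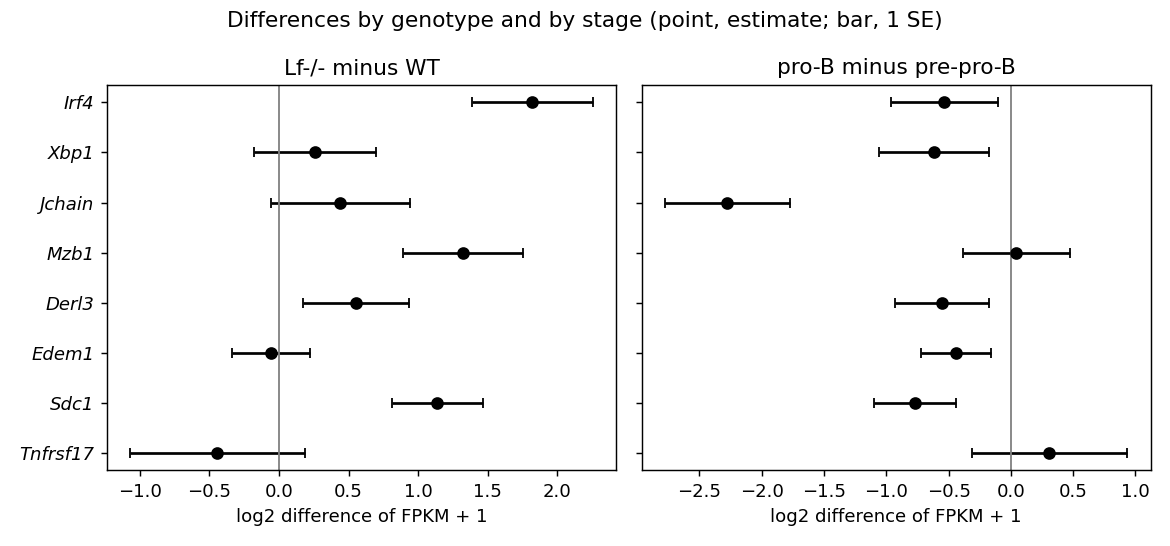
Estimated log2 difference of FPKM + 1 (horizontal axes) for the 8 genes tested, Lf-/- minus WT on the left and pro-B minus pre-pro-B on the right; bars are 1 SE. Irf4, Mzb1 and Sdc1 lay at 1.82, 1.32 and 1.14 by genotype, and Jchain at -2.28 by stage.

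Within pre-pro-B cells alone, 1 of the 8 genes, Irf4, was higher at an unadjusted p under 0.05, as were 2% of the 9720 genes tested, and 0 of the 8 and 0% of all genes passed after adjustment (284 of all genes unadjusted). Its difference was 2.14 ± 0.53 (log2, SE; unadjusted p = 0.00782, adjusted p = 0.941 in limma's test). Jchain, Irf4 and Sdc1 were higher with no overlap, which held for 15.5% of all genes, and Edem1 was lower with no overlap, as were 17.7%. Without Lf-/- pre-pro-B replicate 1, which leaves the library that stood apart as the lone Lf-/- sample and assumes that it varies as the WT samples do, 3338 genes passed the adjusted threshold. Irf4 (adjusted p = 0.0313), Sdc1 (0.0402) and Tnfrsf17 (0.0177, at -2.16) were then among them.

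In pro-B cells all 8 genes had higher means in Lf-/- cells than in the WT library, as did 87.0% of all genes tested. The differences ran from 0.09 for Jchain to 2.36 for Mzb1 on the log2 scale. The difference was at least 2-fold, with both Lf-/- values above the WT value, for 4 of the 8: Mzb1 (2.36), Irf4 (1.35), Sdc1 (1.31) and Xbp1 (1.11). That held for 12.4% of all genes, and the median of all genes was 0.48. With median-ratio scaling that median was 0.017, Irf4, Sdc1 and Xbp1 were at 0.97, 0.99 and 0.49, and Jchain and Edem1 turned to -0.54 and -0.42. With 1 WT pro-B library, these differences have no replicate check on the WT side. In the fit of all 4 groups, 2 of the 8 genes, Mzb1 and Sdc1 (unadjusted p = 0.0438), and 467 of all 10793 genes had an unadjusted p under 0.05, and none of either passed after adjustment in limma's test.

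Other genes of the pathway, from lists chosen for their known roles, were counted by genotype over both stages. Of 26 ER stress and XBP1 target genes tested, 21 had higher and 5 lower values in Lf-/- libraries, with a median of 0.38, compared with 66.8% higher and a median of 0.21 over all genes tested. With median-ratio scaling the median of the list was 0.074. At an unadjusted p of 0.05, 3 passed, all higher, where 6.48% of all genes were. These were Herpud1 (1.69; unadjusted p = 0.00151, adjusted p = 0.213), which serves ER-associated degradation, Edem3 (1.16), a paralog of Edem1, and Dnajb9 (1.09), a cochaperone. Herpud1 was at 123 and 55.1 FPKM in WT pre-pro-B, 261 and 265 FPKM in Lf-/- pre-pro-B, 43.4 FPKM in WT pro-B and 206 and 104 FPKM in Lf-/- pro-B cells, so that only Lf-/- pro-B replicate 2 lay within the WT range. Of 31 genes of protein translocation and vesicle transport, 21 had higher and 10 lower values, a share of 67.7% against 66.8% of all genes, with a median of 0.23 that turned to -0.055 with median-ratio scaling. At the unadjusted threshold 1 gene of the 31 passed, Sec24a (0.64, unadjusted p = 0.0495), a coat protein of ER vesicles, where 6.48% of all genes were higher. Sec24d and Ssr2 were at 0.85 and 0.68. By stage, 1 gene of each of these lists was lower in pro-B cells at an unadjusted p under 0.05 and none higher, with medians of -0.19 and -0.082.

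Of 19 other plasma cell genes tested, 7 were higher and 1 lower at an unadjusted p under 0.05, and none passed after adjustment, with a median of 0.50. Of all genes tested, 6.48% were higher and 0.695% lower at the unadjusted threshold, and the median was 0.21. Cd38, an ectoenzyme of B cells, was at 2.19 ± 0.44 (log2, SE, adjusted p = 0.147 in limma's test). Pim2, a survival kinase, was at 1.95 ± 0.40 (adjusted p = 0.152) and Slamf7, a surface receptor, at 1.66 ± 0.32 (adjusted p = 0.147). All 3 were higher with no overlap between genotypes, as were 9.87% of all genes tested. Pim2 was at 5.68 and 2.96 FPKM in WT pre-pro-B, 10.4 and 25.4 FPKM in Lf-/- pre-pro-B, 1.31 FPKM in WT pro-B and 11.7 and 8.41 FPKM in Lf-/- pro-B cells. The lower gene was Prg2, which eosinophil granules also hold, and was named after its value was seen. A list of B cell identity factors set against the plasma cell program, some of which BLIMP1 is known to repress, was counted as well. It shares Pax5 and Ebf1 with the B lineage list below. All 10 genes tested of this list had higher values in Lf-/- cells, 8 of them at an unadjusted p under 0.05, with a median of 1.32. The shares over all genes were 66.8% and 6.48%. Spib was at 2.14, Id3 at 1.93 and Ciita at 1.81, with adjusted p-values of 0.152 to 0.153 and no overlap between genotypes.

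Markers of the B lineage and of other cells moved with genotype beside Irf4, Mzb1 and Sdc1. Of all genes tested, 66.8% had higher values in Lf-/- cells, and 6.48% were higher at an unadjusted p under 0.05. The 14 B lineage genes took 0.0277% to 0.0779% of summed FPKM in WT and 0.224% to 0.430% in Lf-/- libraries, with no overlap. All 13 tested had higher values in Lf-/- cells, 12 at an unadjusted and 4 at an adjusted p under 0.05, and Cd79a, a subunit of the B cell receptor, rose by 2.79 ± 0.34 (log2, SE; adjusted p = 0.0273 in limma's test). Rag2 was listed at 0 in Lf-/- pre-pro-B replicate 2 and Rag1 in WT pro-B. The 12 plasmacytoid dendritic cell genes, a cell type known to express Irf4 and Mzb1, took 0.0284% to 0.0653% in WT and 0.162% to 0.484% in Lf-/- libraries. Ly6d, which early B cells also express, made up 56.3% to 96.8% of this sum and rose by 2.85 ± 0.30 (log2, SE; adjusted p = 0.0136 in limma's test). Without Ly6d the other 11 genes overlapped, at 0.00922% to 0.0124% in WT and 0.00892% to 0.0707% in Lf-/- libraries, the lowest in Lf-/- pre-pro-B replicate 1. Of the 11 genes of the list tested, 10 had higher values in Lf-/- cells, 4 of them at an unadjusted p under 0.05. Klk1 of that list was at 0 in Lf-/- pre-pro-B replicate 2. Relative to Cd79a, Irf4 overlapped between genotypes, at ratios of 0.00208 to 0.0108 in WT and 0.00290 to 0.00734 in Lf-/- libraries. The ratio of Mzb1 to Cd79a was lower in Lf-/- (0.0942 to 0.261) than in WT libraries (0.288 to 0.443), with no overlap. The neutrophil list took 37.6% to 51.9% in WT and 24.1% to 38.6% in Lf-/- libraries, with overlap. Without S100a8, its most abundant gene, the other 13 did not overlap, at 24.92% to 33.91% in WT and 16.46% to 24.86% in Lf-/- libraries. Of the 14 genes, Ltf included, 11 had lower and 3 higher values in Lf-/- cells. At an unadjusted p under 0.05, 5 were lower and 0 higher, where 0.695% of all genes were lower. Genes of T and NK cells took 0.0660% to 0.169% and those of erythroid cells 1.93% to 15.2% of a library, with overlap between genotypes. Nkg7, a granule gene of NK cells, made up 68.3% to 97.9% of the former, and without it the other 14 genes overlapped too, at 0.00348% to 0.00444% in WT and 0.00193% to 0.0226% in Lf-/- libraries. Of 12 T and NK genes tested, 10 had higher values in Lf-/- cells over both stages, with 1 higher and 1 lower, Nkg7, at an unadjusted p under 0.05. Among the pro-B libraries, 11 of the 12 were higher in Lf-/- cells, with a median of 1.81 against 0.48 over all genes. By stage 11 were higher in pro-B cells, 5 of them at an unadjusted p under 0.05, compared with 1.25% of all genes, and 9 of the 15 genes of the list were listed at 0 in Lf-/- pre-pro-B replicate 2. The part of these cells in the results was not tested.

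**Figure D4:**
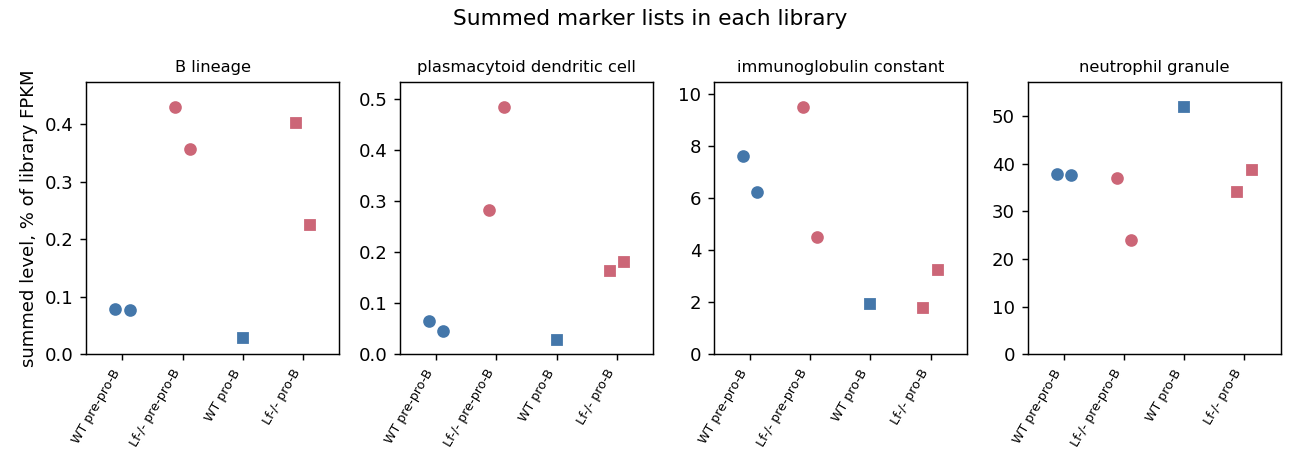
Summed level of 4 gene lists as a percentage of each library's FPKM (vertical axes, linear from 0) in the 4 groups; each point is 1 library, colours and shapes as in the plot of the 9 genes. The B lineage list did not overlap between genotypes, the plasmacytoid dendritic cell list did not either, although its genes other than Ly6d did, and the immunoglobulin constant genes did not overlap between stages.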

How the data were processed

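The authors had RNA of the sorted cells sequenced on a NovaSeq instrument and deposited 1 value per gene and library, read here as FPKM from the values. The submitters' processing notes name TopHat, Cufflinks, HTSeq and DESeq and the build GRCm38, without their roles. Groups and replicate numbers come from the labels. Of 52550 genes, 52403 matched GENCODE M21.

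The 9 genes, the other gene lists and the tests were chosen with earlier results of these data known. Genes named are the 9, the 3 largest genotype differences of each pathway list, genes among the 3 most abundant of a marker list, and the 3 nearest patterns of the 4 most abundant of the 9, except a few items that are not reported here. Other genes were named after their values were seen. Genes that reached 1 FPKM in 2 or more libraries were fitted on log2(FPKM + 1) with limma 3.58.1 in R 4.3.3 (mean-variance trend, two-sided p, Benjamini-Hochberg adjustment), within pre-pro-B cells or over 7 libraries with genotype and stage. Scripts were checked on simulated data. Python 3.11.15, numpy 2.4.6, pandas 2.3.3 and matplotlib 3.10.9 were used for the rest. Whether same-numbered samples came from the same animals is not given, and the main fits took the samples as unpaired. Deviations of same-numbered samples correlated at 0.039, 0.053 and -0.013 over genes, and only the last compared samples of 1 genotype. With 2 libraries per group, opposite-numbered samples give the same values with the sign turned. These values therefore cannot settle whether the numbers pair the samples. Promoters are RefSeq sequences.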

Additional observations from a re-analysis of the deposited data

How the results depend on the processing

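Alternatives were another scaling, filter or pseudocount, a replicate block, a 4-group fit and each library left out. Direction and side of the threshold were kept in 412 values of the program genes, the sign turned in 21, and 14 crossed the threshold with the sign kept. Irf4 by genotype (1.49 to 2.56) and Jchain by stage (-2.73 to -1.70) did not change sign. The turned log2 differences were as follows, and the cause was not tested. With 1 library left out in turn, the differences spanned 0, within pre-pro-B cells at -1.02 to 0.41 for Xbp1 and -0.33 to 0.89 for Derl3, by genotype over both stages at -0.30 to 0.76 for Xbp1 and -1.09 to 0.25 for Tnfrsf17, by stage at -0.31 to 0.74 for Mzb1 and -0.38 to 0.96 for Tnfrsf17, in pro-B cells at -0.94 to 1.12 for Jchain and -0.21 to 1.29 for Tnfrsf17, and in the interaction at -1.62 to 0.44 for Jchain and -0.054 to 0.63 for Sdc1. Without the WT pro-B library, genotype over both stages is estimated from the pre-pro-B libraries alone. The values of -0.30 for Xbp1 and -1.09 for Tnfrsf17 therefore repeat the pre-pro-B differences. With median-ratio scaling, Xbp1 by genotype turned to -0.070, Jchain and Edem1 in pro-B cells to -0.54 and -0.42, and Edem1 in the interaction to -0.073. With quantile normalization the last 3 were at -0.24, -0.44 and -0.062.

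Counts of all genes moved more. Within pre-pro-B cells, 0 genes passed the adjusted and 284 the unadjusted threshold, 649 unadjusted with no filter, 528 in the 4-group fit, and 0 to 3338 adjusted and 140 to 4416 unadjusted with 1 library left out. By genotype over both stages, 20 genes passed after adjustment, 7 with median-ratio scaling, 10 with quantile normalization, 0 with no filter, 63 with at least 1 FPKM in every library, 9 with a pseudocount of 0.1, and 0 to 123 with 1 library left out, when 425 to 3033 passed unadjusted. By stage, 1 gene passed, 0 with median-ratio scaling, quantile normalization, no filter or a pseudocount of 0.1, 6 with the filter in every library, and 0 to 36 with 1 left out; unadjusted, 260 passed, 626 with no filter, 156 with the filter in every library and 139 to 1763 with 1 left out. In the interaction, 0 passed after adjustment, 122 with no filter and 0 to 561 with 1 left out; unadjusted, 296 passed, 132 with median-ratio scaling, 170 with quantile normalization, 1608 with no filter, 152 with the filter in every library, 195 with a pseudocount of 0.1 and 90 to 2920 with 1 left out. The interaction without the WT pro-B library could not be fitted. In pro-B cells, 1462 genes were 2-fold apart (91.7% higher), 840 with median-ratio scaling (53.6% higher), 833 with quantile normalization (55.6% higher) and 2853 with a pseudocount of 0.1, and a 4-group fit gave 0 genes adjusted and 467 unadjusted.

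The replicate numbers were also used as a block, although it is not known whether they pair the samples. With the replicate block, 65 genes passed after adjustment and 532 unadjusted within pre-pro-B cells, 456 unadjusted in the interaction, and 0 after adjustment by stage, where Mzb1 turned to -0.014. With a block by genotype and number, 8 genes passed after adjustment and 403 unadjusted by stage. The block changed no call of the 9 genes. The overlap counts and the marker sums without their most abundant gene were added after seeing the data. Without Ly6d the sum of plasmacytoid dendritic cell genes overlapped between genotypes, and the program genes lower in pro-B cells went from 2 to 1 with median-ratio scaling. Values of Irf4, Prdm1, Derl3, Sdc1 and Tnfrsf17 rest on few fragments. The genotype difference of Mzb1 was wider over both stages than within pre-pro-B cells, and its pro-B part rests on 1 WT library.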

Other observations

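Of the 11 immunoglobulin constant genes tested, 8 had higher values in Lf-/- libraries over both stages, with a median of 0.45. Of all genes tested, 66.8% had higher values, with a median of 0.21. At an unadjusted p under 0.05, 4 of the 8 were higher, as were 6.48% of all genes. Ighd, the IgD heavy chain of mature naive B cells, was at 2.97 and 3.98 FPKM in WT pre-pro-B, 18.1 and 79.8 FPKM in Lf-/- pre-pro-B, 2.59 FPKM in WT pro-B and 51.1 and 40.1 FPKM in Lf-/- pro-B cells. Every Lf-/- library was above every WT library, and Ighd rose by 3.36 ± 0.48 (log2, SE; adjusted p = 0.0444 in limma's test), the only immunoglobulin constant gene to pass after adjustment. Iglc3, a lambda light chain gene, was at 2.49 ± 0.44 (adjusted p = 0.106) with no overlap, and Ighg2c, an IgG heavy chain gene, at 1.78 ± 0.40 (adjusted p = 0.217). Ighg2c was also lower in pro-B cells, at -2.14 ± 0.40 (unadjusted p = 0.000495). Igha and Igkc, by contrast, were at 0.31 ± 0.32 and -0.20 ± 0.44 by genotype. Constant genes of 1 family share stretches of sequence, so the authors' counting could divide their reads.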
